A study of Homo sapiens with 6 samples.

Results

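The dual-specificity MAP kinase phosphatases are the 10 catalytically active enzymes that remove phosphate from both the threonine and the tyrosine of the MAP kinase activation loop. The genes are DUSP1, DUSP2, DUSP4, DUSP5, DUSP6, DUSP7, DUSP8, DUSP9, DUSP10 and DUSP16. They were listed by enzyme family and not by a threshold on measured values, though earlier results of these data were known, and each symbol was matched to its Ensembl identifier. All 10 were found, each on 1 row, among the 39168 identifiers of the count table, and all 10 passed the filter on low counts that left 12821 genes for testing.

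RNA sequencing compared CAL62, an established anaplastic thyroid carcinoma (ATC) cell line of wild-type genotype by its label, in 2 groups of 3 libraries. The erianin group received 50 nM erianin, a small bibenzyl compound from Dendrobium orchids, for 48 h, and the control group received an equal amount of the solvent DMSO for 48 h. Cells of both groups grew in medium with fetal bovine serum, penicillin and streptomycin, and total RNA was taken with TRIzol. The labels number the replicates but do not say whether they came from separate cultures, so the p-values measure the spread between these libraries, which may be technical, and all values come from 1 cell line at 1 dose and 1 time.

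MAP kinases are switched on when an upstream kinase phosphorylates the activation loop, and the phosphatases studied here switch them off again. ERK mainly carries growth factor signals, whereas p38 and JNK mainly carry stress signals. Many of these phosphatases are themselves transcribed in response to MAP kinase activity and form a negative feedback loop, so their mRNAs are widely read as markers of pathway output. DUSP1, DUSP2 and DUSP4 are nuclear enzymes with broad specificity. DUSP5 (nuclear) and DUSP6, DUSP7 and DUSP9 (mainly cytoplasmic) prefer ERK, and DUSP8, DUSP10 and DUSP16 prefer p38 and JNK. The RNA data measure mRNA and not phosphatase protein, activity or MAP kinase phosphorylation.

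Promoter sequences are shown first for the 2 members whose increase was called by every alternative fit at the same thresholds, DUSP1 and DUSP8, and for DUSP10, which was also called but whose promoter held none of the motifs searched. RefSeq promoters on GRCh38.p14 were used for 8 of the 10 members, and none was used for DUSP4 or DUSP5. Each run below holds the 250 bases before the gene start given by RefSeq, 5′ to 3′ on the strand of the gene, with matches to the motifs in capitals. The DUSP1 run covers chr5:172771196-172771445, the DUSP8 run chr11:1572272-1572521 and the DUSP10 run, the more upstream of 2 entries, chr1:221742090-221742339, all on the minus strand. The RefSeq starts, from which distances are counted here, are 172771195, 1572271 and 221742089. For DUSP8 and DUSP10 they differ from the GENCODE starts given with the genes further on (1571920 and 221742176), so the DUSP8 run lies wholly upstream of the GENCODE gene and the DUSP10 run reaches into it.
DUSP1: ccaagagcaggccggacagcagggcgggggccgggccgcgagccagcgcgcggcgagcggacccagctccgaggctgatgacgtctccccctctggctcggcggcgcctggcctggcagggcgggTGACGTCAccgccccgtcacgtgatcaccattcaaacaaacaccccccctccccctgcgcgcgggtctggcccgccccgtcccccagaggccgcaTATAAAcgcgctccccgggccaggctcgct
DUSP8: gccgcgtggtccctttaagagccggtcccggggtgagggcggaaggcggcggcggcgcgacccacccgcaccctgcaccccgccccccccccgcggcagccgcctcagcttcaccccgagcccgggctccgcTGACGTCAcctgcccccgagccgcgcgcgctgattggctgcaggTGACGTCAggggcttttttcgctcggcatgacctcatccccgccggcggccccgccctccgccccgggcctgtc
DUSP10: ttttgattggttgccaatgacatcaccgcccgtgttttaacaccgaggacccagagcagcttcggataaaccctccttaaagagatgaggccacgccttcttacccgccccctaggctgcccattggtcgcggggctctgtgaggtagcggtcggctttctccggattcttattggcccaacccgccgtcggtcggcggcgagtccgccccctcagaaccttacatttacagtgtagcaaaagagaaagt

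The cAMP response element TGACGTCA, a palindrome bound by the CREB and ATF family, occurred once before DUSP1, from 125 to 118 bases before the start. It occurred at 2 places before DUSP8, from 118 to 111 and from 74 to 67 bases before the start. None of the other members with a promoter here (DUSP2, DUSP6, DUSP7, DUSP9, DUSP10 and DUSP16) held this element. The TATA box TATAAA was found before DUSP1 alone among the 8 members with a promoter here, from 30 to 25 bases before the start. Both strands of all 35116 RefSeq promoters of 300 bases (250 before and 50 after the start) were searched in the same way. The cAMP response element was present in 1.85% of them and the TATA box in 11.5%. The AP-1 site TGACTCA (4.95% of promoters), the ATF4 site TGATGNAA (3.62%) and the CArG box of SRF (1.29%) matched none of these 8 members. A match describes letters in this window and not binding, and no match says only that these letters were not in the window.

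**Figure D1:**
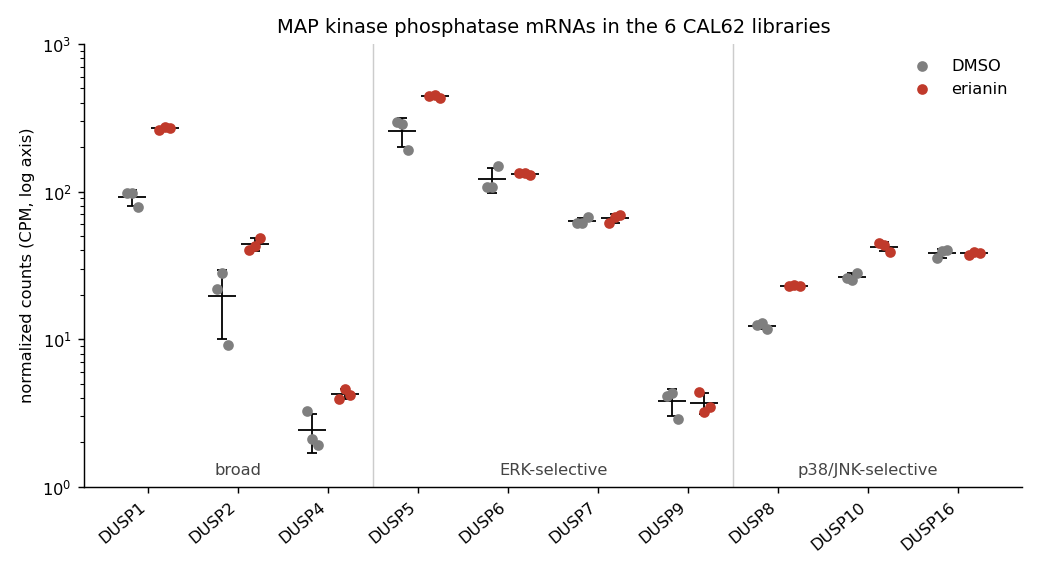
Normalized counts (CPM, counts scaled to a common library size, log axis) of the 10 phosphatase mRNAs. Each point is 1 library, grey for DMSO and red for erianin, and the bar and whiskers give the mean and SD of 3 libraries. For DUSP1, DUSP2, DUSP4, DUSP5, DUSP8 and DUSP10 every erianin library lies above every DMSO library, whereas the groups overlap for DUSP6, DUSP7, DUSP9 and DUSP16.

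Reads counted on named genes ranged from 25776301 to 34107727 per library. DMSO replicate 3 stood apart from its group: its distance to the other DMSO libraries on log2 CPM over tested genes was 62.9 and 64.1, against 37.2 between those libraries and 28.2 to 29.0 among the erianin libraries. The log2 fold change of each phosphatase is therefore given with and without it. PAX8, a thyroid lineage factor, was abundant, at 675 ± 55.2 CPM in DMSO and 428 ± 7.88 CPM in erianin (mean ± SD, n = 3), and fell (log2 fold change -0.66, edgeR adjusted p = 0.0040). NKX2-1 and TSHR had 0 counts in all 6 libraries, which allows up to 3 counts in each, and TG and SLC5A5 had at most 13 counts in any library. The 3 leukocyte markers (PTPRC, CD3E and CD68) summed to 0.0666 to 0.290 TPM in DMSO and 0.0763 to 0.269 TPM in erianin. The 2 endothelial markers (PECAM1 and CDH5) summed to 0.0386 to 0.0648 TPM in DMSO and 0.0164 to 0.209 TPM in erianin. Of the mesenchymal markers, FN1 fell (log2 fold change -0.80, edgeR adjusted p = 0.00761). VIM was at -0.47 (edgeR adjusted p = 0.0300), under the fold threshold of 0.5. Of 4 tested epithelial markers 0 were called, with 0 lower at an unadjusted p under 0.05 and 1 higher. CDH1, also on the epithelial list, was not tested, with 0, 2 and 3 counts in DMSO and 6, 9 and 4 in erianin. The part of these marker shifts in the phosphatase results was not tested.

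Erianin-treated cells held more mRNA of 5 of the 10 phosphatases and less of none. DUSP1 rose most, by 2.93-fold, and DUSP8, DUSP4, DUSP5 and DUSP10 rose by 1.60-fold to 1.86-fold. DUSP6, DUSP7, DUSP9 and DUSP16 stayed within 0.13 of 0 on the log2 scale, and DUSP2 was higher in every erianin library but did not pass the test. A call required a Benjamini-Hochberg adjusted p under 0.05 in edgeR's quasi-likelihood test over all tested genes and a log2 fold change over 0.5 in size. By this rule 5.37% of all tested genes were called higher and 3.36% lower. With upper-quartile factors the calls over all genes were 822 higher and 299 lower, and on log2(TPM + 1) they were 1098 and 94, against 688 and 431 by the main scaling. No member was called lower, 0 of 10 were lower at an unadjusted p under 0.05, and DESeq2 also called 0 lower. At an unadjusted edgeR p under 0.05, 1961 of all 12821 tested genes were higher and 2006 lower. In 6 of the 10 members every erianin library lay above every DMSO library, a pattern found in 19.5% of all tested genes, and in 0 of 10 every erianin library lay below, found in 19.3%. The median log2 fold change was 0.73 over the 10 members and 0.00 over all tested genes. In bulk RNA, fewer cells of a type and less RNA per cell cannot be told apart.

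DUSP1, the broad phosphatase that also acts as an immediate early gene, measured 98.1, 97.8 and 78.8 CPM in the DMSO libraries and 263, 272 and 271 CPM in the erianin libraries. The erianin libraries lay close together and far above the highest DMSO library. The means were 91.6 ± 11.1 and 269 ± 4.75 CPM (SD, n = 3), and the log2 fold change was 1.55 ± 0.10 (SE, 95% interval 1.32 to 1.78, edgeR adjusted p = 0.000696). In the order of fold change over all tested genes, DUSP1 was at place 174 from the top. The log2 fold change was 1.45 without DMSO replicate 3. DUSP1 lies at chr5:172768090-172771195 on the minus strand of GRCh38, inside an antisense gene (AC022217.3) that had 0 counts.

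DUSP2, a broad phosphatase best known from activated lymphocytes, measured 22.0, 28.1 and 9.18 CPM in DMSO and 40.2, 42.9 and 48.7 CPM in erianin. The groups did not overlap, but DMSO replicate 3 held less than the other DMSO libraries. The means were 19.8 ± 9.65 and 44.0 ± 4.33 CPM (SD, n = 3), with a log2 fold change of 1.15 ± 0.35 (SE, 95% interval 0.34 to 1.97) that did not pass the test (edgeR unadjusted p = 0.0115, adjusted p = 0.0654). The estimate without DMSO replicate 3 was smaller, 0.80, and passed (edgeR adjusted p = 1.38e-09). DESeq2 on all 6 libraries also called it (adjusted p = 0.00635). DUSP2 lies at chr2:96143166-96145440 on the minus strand.

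DUSP4, the third broad phosphatase and a classical marker of ERK pathway output, was the least abundant of the 10 per kilobase. It had 79, 68 and 60 counts in DMSO and 135, 162 and 148 in erianin, or 3.24, 2.09 and 1.93 CPM against 3.95, 4.64 and 4.22 CPM. All erianin libraries were higher, though DMSO replicate 1 came near the lowest of them. The log2 fold change was 0.83 ± 0.22 (SE, 95% interval 0.32 to 1.34, edgeR adjusted p = 0.0426). This call was lost with the replicate number as a block (adjusted p = 0.0864), without DMSO replicate 2 (adjusted p = 0.123) and without erianin replicates 1, 2 or 3 (adjusted p = 0.125, 0.160 and 0.144, all edgeR). It was called without DMSO replicate 3, at 0.70. DUSP4 lies at chr8:29333064-29350668 on the minus strand.

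DUSP5, the nuclear ERK phosphatase, was the most abundant member by CPM. It measured 297, 287 and 191 CPM in DMSO and 447, 451 and 432 CPM in erianin. Every erianin library exceeded every DMSO library, with DMSO replicate 3 the lowest. The means were 258 ± 58.3 and 443 ± 9.68 CPM (SD, n = 3), and the log2 fold change was 0.78 ± 0.16 (SE, 95% interval 0.41 to 1.15, edgeR adjusted p = 0.0186). The value was 0.60 without DMSO replicate 3. Leaving out an erianin library kept the estimate between 0.76 and 0.80 but ended the call (edgeR adjusted p = 0.0860, 0.0880 and 0.0824 without replicates 1, 2 and 3). DUSP5 lies at chr10:110497838-110511544 on the plus strand.

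DUSP6, the cytoplasmic ERK phosphatase and a standard readout of ERK activity, measured 108, 108 and 149 CPM in DMSO and 133, 135 and 129 CPM in erianin. DMSO replicate 3 lay above, and the other DMSO libraries below, all erianin libraries. The log2 fold change was 0.13 ± 0.13 (SE, 95% interval -0.18 to 0.43, edgeR adjusted p = 0.566). Without DMSO replicate 3 it was 0.29 with an adjusted p of 1.58e-06 in edgeR, which is under the fold threshold. An increase of more than 0.43 or a decrease of more than 0.18 on the log2 scale lies outside the interval from all 6 libraries. DUSP6 lies at chr12:89347232-89353271 on the minus strand.

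DUSP7, a cytoplasmic ERK phosphatase close to DUSP6 in sequence, measured 61.6, 61.2 and 66.9 CPM in DMSO and 61.0, 67.1 and 69.6 CPM in erianin. The groups overlapped, and the log2 fold change was 0.06 ± 0.09 (SE, 95% interval -0.14 to 0.26, edgeR adjusted p = 0.690), or 0.10 without DMSO replicate 3. DUSP9, known from placenta and development, had 101, 141 and 90 counts in DMSO and 150, 113 and 122 in erianin. Its groups also overlapped, at 3.79 ± 0.789 and 3.70 ± 0.609 CPM (SD, n = 3). The log2 fold change was -0.03 ± 0.21 (SE, 95% interval -0.52 to 0.45, edgeR adjusted p = 0.936), an interval that at this depth still holds a decrease past the fold threshold, and it was -0.20 without DMSO replicate 3. DUSP7 lies at chr3:52048919-52056550 on the minus strand and DUSP9 at chrX:153642492-153651326 on the plus strand.

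DUSP8, a phosphatase of JNK and p38 known best from brain and heart, measured 12.6, 12.8 and 11.7 CPM in DMSO and 23.0, 23.2 and 22.8 CPM in erianin. The spread within each group was small against the distance between them. The means were 12.3 ± 0.611 and 23.0 ± 0.173 CPM (SD, n = 3), and the log2 fold change was 0.90 ± 0.09 (SE, 95% interval 0.68 to 1.12, edgeR adjusted p = 0.00262). It was called in all 17 alternative fits at the same thresholds, as was DUSP1. Without DMSO replicate 3 the value was 0.85. The gene lies at chr11:1554044-1571920 on the minus strand, and the antisense gene KRTAP5-AS1 at its start had 0 counts.

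DUSP10, a p38 and JNK phosphatase of nucleus and cytoplasm, measured 25.9, 25.4 and 28.2 CPM in DMSO and 44.6, 43.7 and 39.1 CPM in erianin. All erianin libraries lay above all DMSO libraries. The log2 fold change was 0.68 ± 0.10 (SE, 95% interval 0.46 to 0.90, edgeR adjusted p = 0.00611), and it was 0.72 without DMSO replicate 3. Without erianin replicate 1 or 2 the edgeR adjusted p was 0.0513 and 0.0507, just past the threshold. The gene lies at chr1:221701424-221742176 on the minus strand. DUSP16, a JNK-preferring phosphatase that shuttles between nucleus and cytoplasm, measured 35.4, 39.4 and 40.3 CPM in DMSO and 37.2, 38.9 and 38.3 CPM in erianin. The erianin values fell inside the DMSO range, and the log2 fold change was -0.01 ± 0.09 (SE, 95% interval -0.21 to 0.19, edgeR adjusted p = 0.959), or 0.02 without DMSO replicate 3. It lies at chr12:12474210-12562383 on the minus strand.

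**Figure D2:**
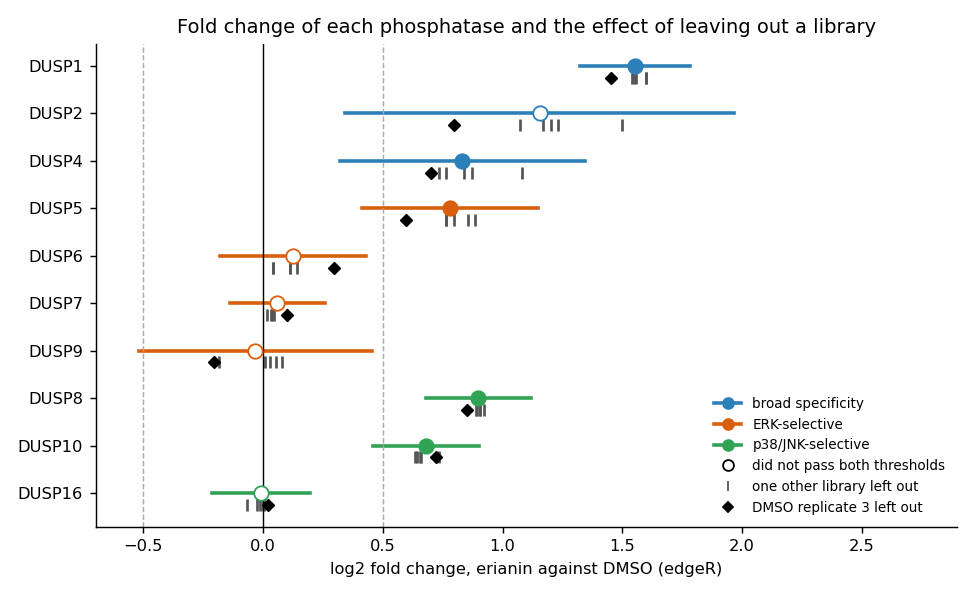
Log2 fold change of each phosphatase, erianin against DMSO, from edgeR. The circle and line give the estimate and its 95% interval, coloured by specificity and filled where both thresholds were passed; ticks below show the estimate with each other library left out and the diamond shows it without DMSO replicate 3. Dashed lines mark -0.5 and 0.5. The intervals of DUSP1 and DUSP8 lie wholly above 0.5, and the DUSP2 interval runs from 0.34 to 1.97.

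With DMSO replicate 3 left out, the 5 called members were still called and DUSP2 was added, giving 6 of 10, beside 11.4% of all tested genes. Without DMSO replicate 1 or 2, 5 and 4 members were called, beside 3.31% and 3.27% of all tested genes. Without erianin replicate 1, 2 or 3, 2, 2 and 3 members were called, beside 1.42%, 1.33% and 1.42% of all tested genes. A stricter threshold of 1 on the log2 scale left 1 member, DUSP1.

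Grouped by substrate preference, 2 of 3 broad members (DUSP1 and DUSP4), 1 of 4 ERK-selective members (DUSP5) and 2 of 3 p38/JNK-selective members (DUSP8 and DUSP10) were called higher. The mean log2 fold change was 1.18 for the broad, 0.23 for the ERK-selective and 0.52 for the p38/JNK-selective group. Within each of the selective groups the members differed: DUSP5 rose while DUSP6, DUSP7 and DUSP9 were not called, and DUSP8 and DUSP10 rose while DUSP16 was not called. The ERK-selective mean minus the p38/JNK-selective mean was -0.29 on the log2 fold scale, and -0.34 without DMSO replicate 3. Per library, this difference in mean log2 CPM, set to average 0 in DMSO, was 0.08, 0.04 and -0.12 in DMSO and -0.25, -0.33 and -0.25 in erianin. The groups of libraries did not overlap, and the pooled SD was 0.08 (n = 3 per group). The contrast is a description with no test, since the members were chosen with results known. The ERK-selective group also rests on 4 genes of which 1 was called. Without DMSO replicate 3, DUSP6 of this group was at 0.29 (edgeR adjusted p = 1.58e-06), under the fold threshold.

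**Figure D3:**
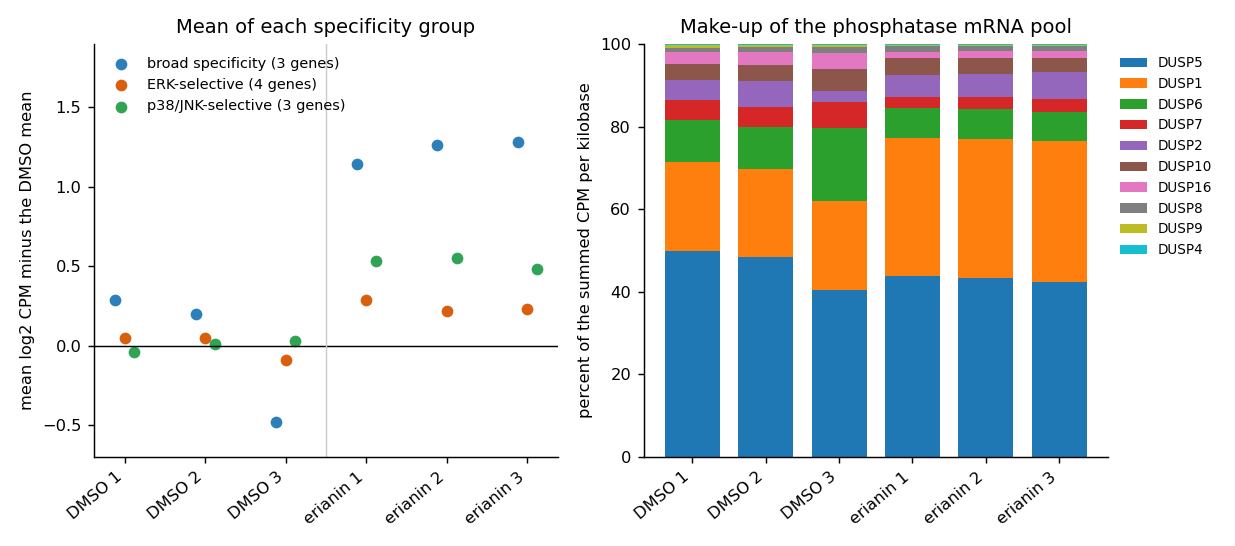
Left, mean log2 CPM of each specificity group in each library, minus that group's DMSO mean. The broad group sits at 1.14 to 1.28 in erianin, the p38/JNK-selective group at 0.48 to 0.55 and the ERK-selective group at 0.22 to 0.29, and the broad group of DMSO replicate 3 is at -0.48. Right, share of each phosphatase in the summed CPM per kilobase of the 10 genes, where the DUSP1 share is about 21% in DMSO and 34% in erianin.

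Ratios of counts within a library do not depend on its scaling. The DUSP1 to DUSP6 ratio was 0.912, 0.909 and 0.530 in DMSO and 1.98, 2.02 and 2.09 in erianin, so DUSP6 had more reads than DUSP1 in each DMSO library and fewer in each erianin library. The DUSP8 to DUSP16 ratio, between p38/JNK-selective members, was 0.355, 0.326 and 0.289 in DMSO and 0.620, 0.596 and 0.596 in erianin. The DUSP1 to DUSP5 ratio was 0.330, 0.341 and 0.412 in DMSO and 0.589, 0.604 and 0.626 in erianin. In all of these ratios the groups did not overlap. The pairs hold members of unlike fold change, chosen with earlier results known, so this separation is no independent support for the calls.

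Levels of different genes were compared per kilobase of annotated exon (union of exons, GENCODE release 29). In DMSO the order was DUSP5 (98.8 ± 22.3 CPM per kilobase), DUSP1 (45.4 ± 5.49), DUSP6 (26.2 ± 5.12), DUSP7 (11.2 ± 0.563), DUSP2 (10.2 ± 5.00), DUSP10 (9.10 ± 0.515), DUSP16 (6.70 ± 0.451), DUSP8 (2.67 ± 0.132), DUSP9 (1.37 ± 0.284) and DUSP4 (0.334 ± 0.0987; SD, n = 3 throughout). DUSP7 and DUSP2 overlapped across libraries, as did DUSP2 and DUSP10. In erianin DUSP5 was at 169 ± 3.70 and DUSP1 at 133 ± 2.35 CPM per kilobase, ahead of DUSP6 at 28.6 ± 0.602. DUSP2 (22.8 ± 2.24) and DUSP10 (14.6 ± 1.01) then stood above DUSP7 (11.7 ± 0.784), followed by DUSP16, DUSP8, DUSP9 and DUSP4 in the same order as in DMSO. No neighbours overlapped in erianin. The deposited TPM, which use other lengths, gave the same order in DMSO, but in erianin DUSP1 (898 ± 19.4 TPM) and DUSP5 (886 ± 7.91 TPM) overlapped, and DUSP2 (121 ± 13.2 TPM) stood above DUSP6 (104 ± 0.811 TPM) and DUSP7 (69.5 ± 5.10 TPM) above DUSP10 (46.9 ± 2.76 TPM). The order in erianin of DUSP1 and DUSP5, of DUSP2 and DUSP6 and of DUSP7 and DUSP10 thus depended on the lengths used.

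The summed level of the 10 genes was 227, 227 and 181 CPM per kilobase in DMSO and 390, 399 and 392 in erianin. DUSP1 made up 21.4 ± 0.0858% of this sum in DMSO and 33.8 ± 0.413% in erianin. DUSP5 made up 46.2 ± 5.14% and 43.1 ± 0.777%, and DUSP6 12.7 ± 4.31% and 7.26 ± 0.122%. By group, the broad members went from 26.2 ± 1.83% to 39.7 ± 0.986%, the ERK-selective members from 64.9 ± 0.807% to 53.6 ± 0.749% and the p38/JNK-selective members from 8.84 ± 1.53% to 6.66 ± 0.237% (SD, n = 3). The share of the p38/JNK-selective members was smaller in erianin although DUSP8 and DUSP10 rose. With TPM in place of CPM per kilobase, the broad share was 32.6 ± 1.35% and 47.0 ± 0.923% and the ERK-selective share 61.7 ± 0.766% and 49.0 ± 0.775%.

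The kinases that these phosphatases act on were measured for comparison. The counts of this and the next lists are to be read beside all tested genes, of which 5.37% were called higher and 3.36% lower. At an unadjusted edgeR p under 0.05, 1961 of all 12821 were higher and 2006 lower. Of 9 MAP kinase genes tested, 0 were called in either direction, with 1 higher and 1 lower at an unadjusted p under 0.05, and DESeq2 called 0. Their median log2 fold change was -0.04, and 0.12 on log2(TPM + 1), a scaling in which the median of all tested genes was 0.18. MAPK3, which encodes ERK1, was at -0.41 (edgeR adjusted p = 0.0220), under the fold threshold, and MAPK11, a p38 gene and the most abundant of the list by TPM, at -0.25 (adjusted p = 0.332). Of 6 MAP kinase kinase genes 5 were tested and 0 were called, with 2 lower and 0 higher at an unadjusted p under 0.05 and 0 called by DESeq2. MAP2K2, which encodes the ERK activator MEK2 and was the most abundant by TPM, measured 442 ± 50.8 CPM in DMSO and 326 ± 5.20 CPM in erianin (log2 fold change -0.44, edgeR adjusted p = 0.0223), and among 17 alternatives it was called lower in 1, the fit without DMSO replicate 3 (-0.53).

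Among 10 tested of 14 listed atypical dual-specificity phosphatases and the pseudophosphatase STYXL1, 1 was called higher and 0 lower, with 1 lower at an unadjusted p under 0.05. DUSP15 had 24, 50 and 40 counts in DMSO and 95, 119 and 105 in erianin, with no overlap in CPM (log2 fold change 1.25 ± 0.21, SE, edgeR adjusted p = 0.0108), a call that was lost without any 1 of the erianin libraries. DUSP23, the most abundant by TPM, was at -0.06 (edgeR adjusted p = 0.870). DUSP14 was not analysed here. Of the 3 tyrosine phosphatases that dock on MAP kinases, only PTPRR passed the low-count filter. It had 14, 18 and 24 counts in DMSO and 56, 60 and 70 in erianin (log2 fold change 1.48 ± 0.24, SE, edgeR adjusted p = 0.00883), and the call was lost without erianin replicate 2 or 3 and on log2(TPM + 1) with no filter.

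Other feedback genes of receptor tyrosine kinase and ERK signalling, the Sprouty and SPRED inhibitors and the PEA3 factors ETV1, ETV4 and ETV5, had 0 of 10 called higher and 1 called lower, with 2 higher and 4 lower at an unadjusted p under 0.05. DESeq2 called 0 higher and 2 lower, the second being ETV1 (edgeR log2 fold change -0.59, adjusted p = 0.0518), which was called in 5 of 17 alternatives. ETV4 was at -0.37 (edgeR adjusted p = 0.0438), under the fold threshold. SPRED3, a membrane inhibitor of RAS signalling, fell from 37.8 ± 7.35 to 16.3 ± 1.01 CPM (SD, n = 3, log2 fold change -1.21 ± 0.15, SE, edgeR adjusted p = 0.00419). SPRY2, the most abundant by TPM, was at -0.08 (edgeR adjusted p = 0.475). The median of the list was -0.13, and 0.10 on log2(TPM + 1), where that of all tested genes was 0.18. Of 9 early response and stress transcription factors, 3 were called higher and 0 lower, with 2 lower at an unadjusted p under 0.05. ATF4 was one of these 2, at -0.34 (edgeR adjusted p = 0.0233), under the fold threshold. ATF3, a stress-induced repressor, rose from 11.6 ± 2.17 to 40.6 ± 1.69 CPM (log2 fold change 1.82, edgeR adjusted p = 0.00105). DDIT3, the CHOP gene of the unfolded protein response, rose from 34.7 ± 7.33 to 82.9 ± 1.79 CPM (log2 fold change 1.26, edgeR adjusted p = 0.00410). FOSB rose by 0.63 on the log2 scale (edgeR adjusted p = 0.00664), and the most abundant member by TPM, EGR1, was at -0.30 (adjusted p = 0.158). SPRED3, ATF3 and DDIT3 were called in all 17 alternatives and FOSB in 16, the exception being the fit without erianin replicate 2.

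**Figure D4:**
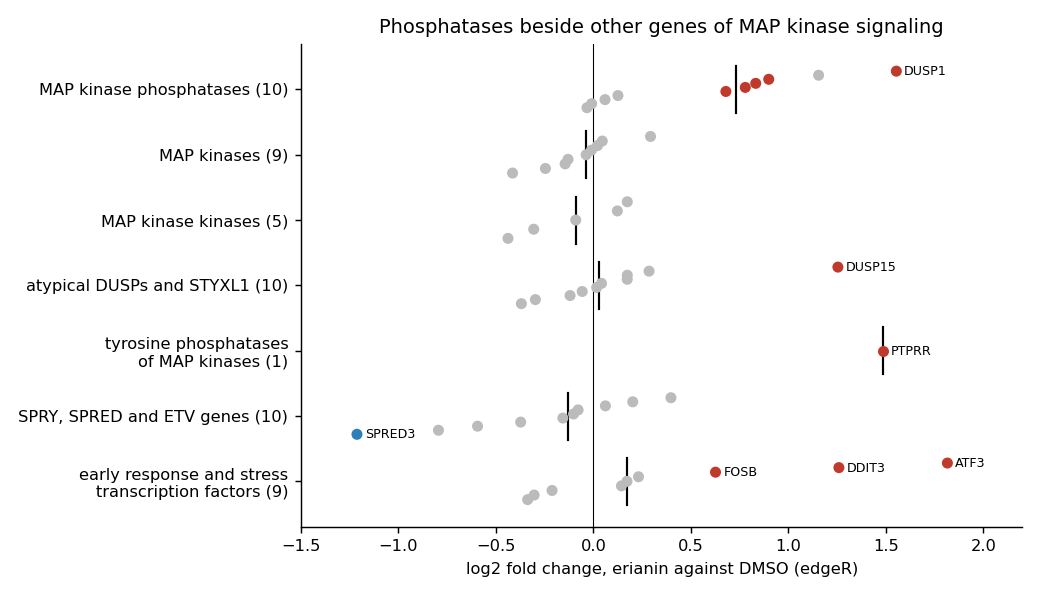
Log2 fold change of the phosphatases and of other genes of MAP kinase signalling, erianin against DMSO, from edgeR, with the number of tested genes of each list in brackets. Red and blue points were called higher and lower, grey points were not called, and the black bar is the median of the list. The median is 0.73 for the phosphatases and between -0.13 and 0.17 for the other lists of 5 or more genes.

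For each called phosphatase, the genes with the most similar profile were found by the distance between log2 CPM profiles centred on their mean over the 6 libraries, among 9720 genes with a mean of at least 5 CPM. These 6 points include the contrast itself, so similar genes share its direction. The nearest to DUSP1 were PTX3 (distance 0.173), KRT17 (0.187) and CXCL8 (0.215). The nearest to DUSP5 were APOE (0.0965), ATAD3B (0.108) and TAF13 (0.128), and those to DUSP8 were TUFT1 (0.109), GATA2 (0.119) and SAT1 (0.129). DUSP10 was near to CDKN2AIP (0.140) and ELOA (0.148). DUSP4, with few counts, had no profile as close, the nearest being the read-through gene TM4SF19-DYNLT2B (0.269), SIK1 (0.285) and CGN (0.288).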

How the data were processed

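RNA of 6 CAL62 libraries, 3 with DMSO and 3 with erianin, was analysed from raw read counts per gene deposited by the authors. The authors also deposited TPM. The columns of DMSO replicates 1, 2 and 3 sum to 73.5%, 72.6% and 59.1% of their nominal total. Those of erianin replicates 1, 2 and 3 sum to 77.2%, 75.1% and 78.3%. The TPM were used without rescaling, so the fits on TPM carry this difference between the groups. Per the submitters' processing notes, fastp 0.23.2, STAR 2.7.10, featureCounts 2.0.1, StringTie 2.2.1 and GRCh38 (hg38) were used; their roles, the annotation and the strand setting are not given in the sources used here, so reads of a gene and an antisense partner cannot be told apart. The paper names BGISEQ-500 sequencing and the labels an Illumina library protocol. Of 65807 rows, 26480 without an identifier (0.00385% to 0.00515% of counts) were left out. Symbols matched 38259 identifiers.

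Counts were tested with edgeR 4.0.16 (TMM, filterByExpr, glmQLFit and glmQLFTest, no block) in R 4.3.3, with Benjamini-Hochberg adjustment over 12821 genes and SE from the quasi-likelihood F statistic. CPM are counts divided by TMM-scaled library sizes. Alternatives were DESeq2 1.42.0, RLE and upper-quartile factors, no filter, a minimum of 10 counts per library, limma 3.58.1 on log2(TPM + 1) or log2(TPM + 0.1) with or without a mean TPM of at least 1, the replicate number as a block, a GC offset (loess, span 0.5) with and without the block, other fold thresholds, and each library left out. The GC offset without DMSO replicate 3 and the levels per kilobase were added after seeing the data. The steps were also run on simulated counts with the same spread for every gene and no outlying library. Those counts do not cover a library such as DMSO replicate 3, and their outcome is not given here. Python 3.11.15, pandas 2.3.3 and matplotlib 3.10.9 were also used.

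The members and lists were chosen with earlier results of these data known. Named were all members, the called and the most abundant gene of each list, and the 3 genes nearest in profile to each called member. MAPK3, ETV1, ETV4, ATF4, the markers and single lost calls were named after their values were seen. Some genes that these rules select are not shown. Gene positions come from GENCODE release 29. Protein sequences were not used here. Replicates with the same number did not deviate together (correlations 0.00, 0.03 and -0.03), so the block is only an alternative.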

Additional observations from a re-analysis of the deposited data

How the results depend on the processing

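The number of phosphatases called higher was 5 in the reported fit, 5 or 6 under other normalizations, filters, tools and the GC offset, and 2 to 6 with 1 library left out, with 0 called lower in each. A threshold of 1 on the log2 scale left 1. DUSP1 (1.45 to 1.76 on the log2 scale) and DUSP8 (0.85 to 1.09) were called in 17 of 17 alternatives, DUSP10 in 15, DUSP5 in 14, DUSP4 in 12 and DUSP2 in 5. DUSP2 was called without the low-count filter (edgeR adjusted p = 0.0489), by DESeq2 and with the GC offset without and with the block (edgeR adjusted p = 0.0123 and 0.0152), and otherwise only without DMSO replicate 3. The cause was not tested. The ERK-selective minus p38/JNK-selective difference stayed between -0.34 and -0.25 with 1 library left out and in every other alternative.

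The replicate numbers shared by the groups did not pair the libraries, with the best match at the own number in 2 of 6. With the replicate number as a block, 4 phosphatases were called, DUSP4 being lost (0.85, edgeR adjusted p = 0.0864), and over all genes 384 were called higher and 281 lower. Without DMSO replicate 3 these were 1485 and 797, and without 1 erianin library 172 to 184 and 126 to 144. Without DMSO replicates 1 and 2 they were 433 and 311, and 425 and 312. Across genes, the common biological coefficient of variation went from 0.139 to 0.0421 when DMSO replicate 3 was dropped.

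The values of DUSP9 and DUSP16, both near 0 and never called, changed sign. DUSP9 was 0.022 with upper-quartile factors, 0.14 on log2(TPM + 1) with and without the filter, 0.17 on log2(TPM + 0.1), 0.032 with the GC offset, 0.023 with the GC offset and the block, and -0.20 to 0.078 with 1 library left out. DUSP16 was 0.043, 0.18 and 0.19 in the first 3 of these scalings, and -0.068 to 0.020 with 1 library left out. The TPM scaling moved the median of all genes to 0.18, or 0.20 with the pseudocount of 0.1 and 0.12 without the filter, and these values are to be read against that shift. On log2(TPM + 0.1) 1207 genes were called higher and 110 lower, and without the filter 1057 and 88. Depth limits DUSP4 and DUSP9, with 60 to 162 counts per library.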
